A study of Mus musculus with 10 samples.

Results

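The expression of 5 potassium channel genes, Kcna10, Kcnma1, Lrrc52, Kcnh2 and Kcnh7, was examined in hair cells (HCs) of the inner ear. The 5 genes were taken by symbol from the 32285 genes counted in each library, and all 5 were found and passed the filter on low counts in every comparison. The libraries are single-cell RNA-seq of dissociated cochlear and vestibular sensory epithelia from wild-type CBA/J mice of 22 months. They number 5 per organ, each pools several mice of both sexes, and no treatment was given other than ageing, so that all groups share 1 strain and 1 age. Young mice were not analysed here.

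Replicate 2 of each organ repeated replicate 1. All 1313 barcodes of cochlear replicate 2 and 1633 of the 1641 of vestibular replicate 2 were also in replicate 1, and the difference in counts was smaller than sampling noise (a chi-square per gene of 0.142 and 0.121, against 23.8 to 220.9 for other pairs). Each pair was counted as 1 sample, which left 4 libraries per organ. Other pairs of libraries of an organ shared at most 17 barcodes. The 4 libraries kept held 2738036 to 26974948 UMIs (unique molecular identifiers, 1 per captured transcript) in the cochlea and 4150642 to 24104850 in the vestibule.

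HC types were named from clusters that were built without any potassium channel gene. They comprised 1491 type I and 278 type II vestibular HCs, 76 inner (IHCs) and 77 outer hair cells (OHCs). A vestibular cluster was named type I when more of its cells held Adam11 than Sox2, and type II otherwise. A cochlear cluster was named IHC when more of its cells held Slc17a8 than Slc26a5, and OHC otherwise. The shares of these genes thus follow from the naming and are no separate support for it. Type I cells carried Adam11 (92.1% of cells) and almost no Sox2 (1.27%), whereas type II cells carried Sox2 (80.2%) and little Adam11 (6.12%). IHCs carried Otof (98.7%) and Slc17a8 (73.7%), but Fgf8 of the marker list was not detected. OHCs carried Ocm (94.8%) and Slc26a5 (84.4%), along with Otof in 19.5% of cells. Other list markers did not separate the types as well. Ocm, of the OHC list, was found in 48.9% and 55.2% of cells of the IHC clusters. Spp1, of the type I list, was found in 79.6% and 88.7% of cells of the type II clusters. Calb2, of the type II list, was found in 64.4% and 19.4% of cells of the same type II clusters, and Ocm in 15.3% and 59.7%. Cochlear replicate 1 held 2 IHCs, too few for a sum, so that n was 3 libraries for IHCs and 4 for the other types, and its 26 HCs were mostly OHCs. A further 69 cochlear and 509 vestibular cells with HC markers were set aside because their clusters also carried leading genes or markers of other cells.

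Potassium channels set the resting potential and the speed of the receptor potential of HCs. Kcna10 encodes Kv1.8, a Shaker-type voltage-gated subunit that type I HCs need for their large low-voltage-activated potassium conductance. Kcnma1 encodes the pore-forming subunit of the BK channel, which opens with voltage and calcium and carries a fast current in mature IHCs, and Lrrc52 encodes a gamma auxiliary subunit that shifts BK gating to more negative voltages. Kcnh2 and Kcnh7 encode ERG1 and ERG3 of the ether-a-go-go-related family, whose channels recover from inactivation faster than they close.

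On mm10 (GRCm38, GENCODE M21 annotation), Kcna10 (ENSMUSG00000042861) lies on the plus strand at chr3:107183056-107195721. The other 4 genes lie on the minus strand, with Kcnma1 (ENSMUSG00000063142) at chr14:23289431-24014491, Lrrc52 (ENSMUSG00000040485) at chr1:167445669-167466780, Kcnh2 (ENSMUSG00000038319) at chr5:24319589-24351604 and Kcnh7 (ENSMUSG00000059742) at chr2:62693414-63184287. Exons of Kcnma1 overlap those of the non-coding RNA 4930519K11Rik, and exons of Kcnh7 overlap those of Gca, each on the opposite strand. Reads of the 3′ kit used here carry the strand of the transcript.

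The bases just upstream of the annotated start are shown for 3 members with distinct patterns, Kcna10 (all HC types), Lrrc52 (cochlear HCs) and Kcnh7 (vestibular HCs). They are RefSeq promoter windows on GRCm38 cut at the GENCODE start, printed 5′ to 3′ on the strand of the gene, with CpG dinucleotides in capitals. They cover chr3:107182893-107183055 for Kcna10, chr1:167466781-167467030 for Lrrc52 and chr2:63184288-63184537 for Kcnh7.
Kcna10: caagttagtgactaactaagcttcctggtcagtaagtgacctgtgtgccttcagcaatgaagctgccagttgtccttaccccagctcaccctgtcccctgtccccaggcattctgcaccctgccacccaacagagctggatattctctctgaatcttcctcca
Lrrc52: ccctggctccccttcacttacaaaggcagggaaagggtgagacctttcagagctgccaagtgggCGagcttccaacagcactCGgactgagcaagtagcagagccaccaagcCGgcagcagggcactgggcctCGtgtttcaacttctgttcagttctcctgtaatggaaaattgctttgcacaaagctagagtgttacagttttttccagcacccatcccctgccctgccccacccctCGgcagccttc
Kcnh7: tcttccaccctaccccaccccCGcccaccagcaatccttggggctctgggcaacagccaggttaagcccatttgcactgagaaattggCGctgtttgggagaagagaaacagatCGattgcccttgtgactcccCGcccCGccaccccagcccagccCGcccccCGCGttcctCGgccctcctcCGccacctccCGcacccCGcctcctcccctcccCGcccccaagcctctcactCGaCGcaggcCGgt

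The members differed in the CpG content of the whole RefSeq window of 300 bases. The Kcna10 window held 0 CpG, as did 5.78% of 27025 mouse promoters, against a median of 7 over all promoters. Lrrc52 held 6, Kcnh2 19, Kcnh7 21 and Kcnma1 36, and 94.6% of promoters held no more than Kcnma1. The motif TATAAA was in none of the 5 windows on either strand, against 14.2% of all promoters. The motif CANNTG, which reads the same on both strands, occurred 2 times in the Kcna10 window, 1 time in those of Lrrc52 and Kcnh7 and not in the other two, and 72.1% of all promoters held it. The RefSeq windows of Kcnma1 and Kcnh2 lie wholly inside the GENCODE gene, so they are not printed.

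Levels are given as CPM, the UMIs of a gene per 1000000 UMIs of a cell type in a library, as mean ± SD over libraries. The reads come from the 3′ end, so a level is not divided by transcript length, and levels of different genes are compared as numbers of captured transcripts. A UMI sum does not tell fewer transcripts per cell from fewer cells with the transcript.

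Kcna10 was the most abundant potassium channel gene of type I HCs, type II HCs and IHCs. In type I HCs its level was 1392, 1183, 968 and 890 CPM in replicates 1, 3, 4 and 5, a mean of 1108 ± 226 CPM (n = 4). In type II HCs it was 678, 445, 329 and 348 CPM in the same libraries, a mean of 450 ± 160 CPM (n = 4). All 4 type I values lay above all 4 type II values. IHCs held 613, 425 and 458 CPM in replicates 3, 4 and 5 (499 ± 100, n = 3), and OHCs held 246, 214, 219 and 212 CPM (223 ± 15.7, n = 4). IHC and OHC values did not overlap, and the OHC values were the closest together of the 4 types.

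**Figure D1:**
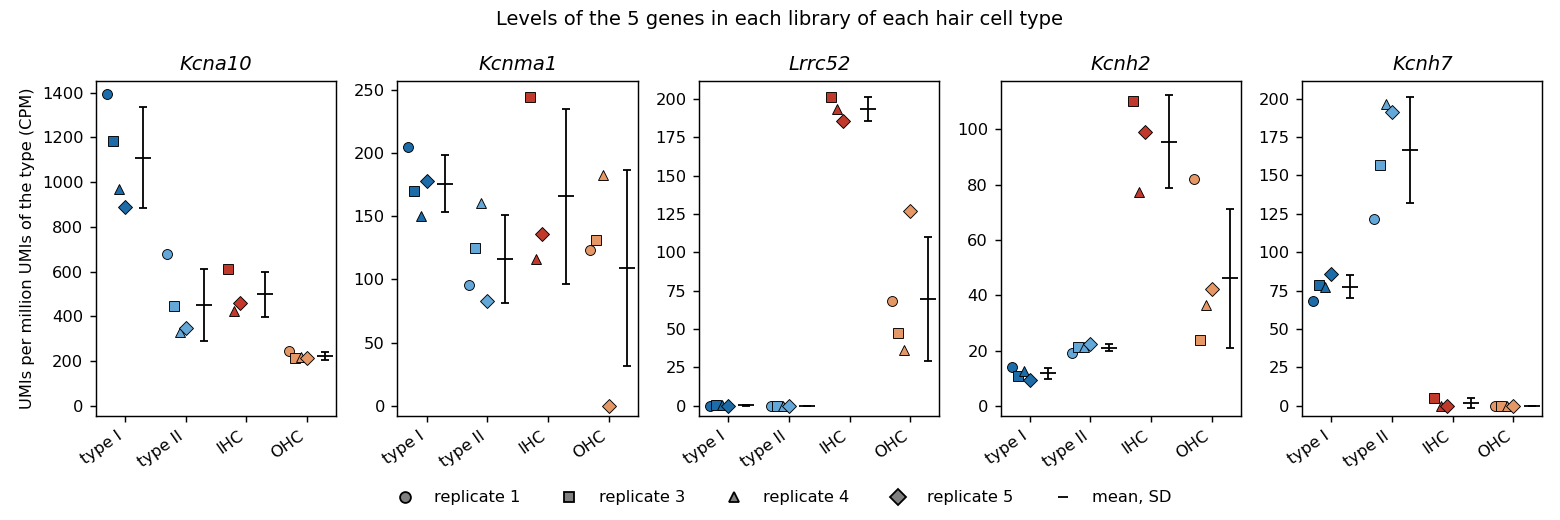
Level (CPM, linear axis) of each gene in the type I, type II, inner (IHC) and outer (OHC) hair cells of each library. Points are libraries, with the shape giving the replicate, and the black mark and bar give the mean and SD. Kcna10 is highest in type I HCs (890 to 1392 CPM), Lrrc52 and Kcnh2 are highest in IHCs, and Kcnh7 is at or near 0 in both cochlear types.

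With the quasi-likelihood test of edgeR and Benjamini-Hochberg adjustment over all genes tested, Kcna10 was higher in type I than in type II HCs by 1.39 ± 0.210 (log2 fold change ± SE, adjusted p = 1.47e-06). In that comparison 17.9% of 6727 genes passed the threshold of 0.05 (1206 genes, and 1972 with the library as a block). Kcna10 was also higher in type I HCs than in IHCs, by 1.13 ± 0.239 (adjusted p = 0.000179), and than in OHCs, by 2.44 ± 0.271 (adjusted p = 1.39e-09), where 33.8% and 28.9% of genes passed. It was higher in IHCs than in OHCs by 1.31 ± 0.304 (adjusted p = 0.00173). There 14.9% of genes were called (1001 genes, and 507 with the library as a block). This call was lost without cochlear replicate 3 (1.09, adjusted p = 0.0708), at a coarser clustering (0.53, adjusted p = 0.536), with cells thinned to 1000 UMIs (0.61, adjusted p = 0.408) and with a limit of 10% mitochondrial UMIs (1.09, adjusted p = 0.108). Type II HCs exceeded OHCs by 1.06 ± 0.285 (adjusted p = 0.00364, 28.8% of genes called). That call was lost with the limit of 10% (0.57, adjusted p = 0.212), with cells named from their own marker UMIs (0.53, adjusted p = 0.301) and after thinning (0.64, adjusted p = 0.205). Type II HCs and IHCs, next to each other in the order, differed by -0.26 with a 95% interval of -0.73 to 0.22 (adjusted p = 0.481, 31.7% of genes called).

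Kcna10 UMIs were found in 92.4% of type I HCs, 70.9% of type II HCs, 78.9% of IHCs and 41.6% of OHCs. The median depth differed between the types, from 2617 UMIs in OHCs to 5586.5 in IHCs, with 3969 for type I HCs and 4742.5 for type II HCs. With every cell thinned to 1000 UMIs, a depth that all cells kept had reached, the shares were 64.6%, 30.6%, 48.7% and 23.4%. Macrophage-like cells, which should lack the gene, held a Kcna10 UMI in 2.17% of 368 vestibular and 0.449% of 445 cochlear cells, at median depths of 2754 and 2539 UMIs. Every HC type was above this background before and after thinning.

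Among HCs, Lrrc52 was found in the cochlear types. IHCs held 202, 193 and 186 CPM in replicates 3, 4 and 5 (194 ± 7.93, n = 3), and OHCs held 68.3, 47.6, 36.5 and 127 CPM in replicates 1, 3, 4 and 5 (69.9 ± 40.4, n = 4). The OHC values rest on 5, 4, 1 and 6 UMIs, and none reached the lowest IHC value. In the vestibule, type II HCs held 0 UMIs of Lrrc52 among 1406507, and type I HCs held 2 among 5987296. A count of 0 allows up to 2.13 CPM in type II HCs.

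Summed over libraries, the Lrrc52 level of IHCs was 593 times that of type I HCs (95% interval of the ratio 160 to 4959, counting error only) and at least 92.8-fold higher than that of type II HCs. For OHCs the ratio to type I HCs was 207 (48.6 to 1853), and the level was at least 32.4-fold higher than in type II HCs. Lrrc52 passed the filter on low counts through the IHCs, in which it was high, so these ratios are given as a description, with no test. Between the cochlear types, Lrrc52 was higher in IHCs than in OHCs by 1.61 ± 0.397 on the log2 scale as fitted by edgeR. This difference is likewise a description, with no test, for a gene that passed the filter through IHCs. Without cochlear replicate 3 it was 1.35.

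Lrrc52 was detected in 61.8% of 76 IHCs and 16.9% of 77 OHCs, and in 21.1% and 6.49% after thinning. In macrophage-like cells it was found in 0 of 445 cochlear cells, which allows up to 0.674% of cells with a UMI. Type I HCs held it in 0.134% of 1491 cells.

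Kcnma1, the partner of Lrrc52 in the BK channel, was present in all 4 types at levels that overlapped. Type I HCs held 205, 170, 150 and 177 CPM in replicates 1, 3, 4 and 5 (176 ± 22.6, n = 4). Type II HCs held 95.9, 125, 161 and 82.9 CPM in the same libraries (116 ± 34.5, n = 4). Type II replicate 4 lay above type I replicate 4, and the other type II values lay below every type I value. IHCs held 245, 116 and 136 CPM in replicates 3, 4 and 5 (166 ± 69.2, n = 3). OHCs held 123, 131, 182 and 0 CPM in replicates 1, 3, 4 and 5 (109 ± 77.3, n = 4), where the 0 stands for 14 cells with 47145 UMIs and allows up to 63.6 CPM.

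For Kcnma1 the direct comparison of type I with type II HCs gave 0.61 ± 0.223 with an adjusted p of 0.0501 by edgeR, just outside the threshold. Type I and type II HCs of a library come from the same mice, and with the library as a block in this pairing the difference was 0.60 and passed (adjusted p = 0.00105). It also passed in 15 of the other 24 alternative settings, among them the fits without vestibular replicate 4 or without any of the cochlear replicates, and it ranged from 0.46 to 1.30 over all 25. Type II HCs were lower than IHCs by 0.74 ± 0.287 on the log2 scale (adjusted p = 0.0445). That call was lost without cochlear replicate 3 (-0.085, adjusted p = 0.927), without vestibular replicate 3 (-0.81, adjusted p = 0.0740) and without vestibular replicate 5 (-0.64, adjusted p = 0.114), and the sign turned in 2 alternative clusterings. The other 4 comparisons of Kcnma1 between types did not pass. IHCs and OHCs differed by 0.96 with a 95% interval of 0.17 to 1.75 (adjusted p = 0.111), type I HCs and IHCs by -0.13 (-0.64 to 0.38, adjusted p = 0.758), type I HCs and OHCs by 0.83 (0.13 to 1.53, adjusted p = 0.0799) and type II HCs and OHCs by 0.22 (-0.55 to 0.99, adjusted p = 0.742).

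The make-up of the BK transcripts, given as a description, was unlike in the organs. The number of Lrrc52 UMIs per Kcnma1 UMI was 0.824, 1.67 and 1.36 in the IHCs of replicates 3, 4 and 5 and 0.556, 0.364 and 0.200 in the OHCs of replicates 1, 3 and 4, with no Kcnma1 UMI in the OHCs of replicate 5. It was at most 0.00500 in any type I library and 0 in every type II library. Among single cells, 32 of 76 IHCs held UMIs of both genes and 22 of neither, whereas 3 of 77 OHCs held both and 52 neither, at median depths of 5586.5 and 2617 UMIs. The other genes for BK auxiliary subunits gave almost no UMIs. The gamma subunit genes Lrrc26 and Lrrc38 were at 0 in all 4 types and Lrrc55 had 1 UMI in OHCs, while of the beta subunit genes Kcnmb2 had 3 and Kcnmb4 2 UMIs in the vestibular types, and Kcnmb1 and Kcnmb3 were at 0.

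The ERG genes were used in opposite order in the organs. Kcnh7, for ERG3, was at 122, 157, 196 and 191 CPM in the type II HCs of replicates 1, 3, 4 and 5 (167 ± 34.8, n = 4). In the type I HCs of the same libraries it was at 68.2, 79.0, 77.2 and 85.9 CPM (77.6 ± 7.28, n = 4), below every type II value. Among 530254 UMIs of IHCs 2 came from Kcnh7, both in replicate 3, and among 231769 UMIs of OHCs none did, which allows up to 12.9 CPM.

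Kcnh7 was lower in type I than in type II HCs by 1.06 ± 0.184 on the log2 scale (adjusted p = 2.32e-05, edgeR). When the mixed clusters were kept as HCs the difference was -0.27 (adjusted p = 0.442), and when each cell was named from its own marker UMIs it was -0.29 (adjusted p = 0.765). Supporting-cell markers moved with the same contrast. Their summed level (Gjb2, Slc1a3, Sparcl1, Otog, Otogl and Prox1, all 6 detected in every library) ranged from 71.3 to 190 CPM for type I HCs and from 457 to 804 CPM for type II HCs, against a Kcnh7 mean of 5.85 CPM in vestibular supporting cell-like cells. Their part in the type I against type II differences was not tested. Against the cochlear types, the summed Kcnh7 level of type I HCs was 20.9 times that of IHCs (95% interval 5.74 to 173, counting error only) and at least 6.08-fold higher than that of OHCs. For type II HCs it was 44.7 times that of IHCs (12.2 to 371) and at least 13.0-fold higher than that of OHCs. Kcnh7 passed the filter on low counts through the vestibular types, so these ratios are a description, with no test.

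Kcnh2, for ERG1, was at 110, 77.3 and 99.1 CPM in the IHCs of replicates 3, 4 and 5 (95.6 ± 16.7, n = 3). OHCs held 82.0, 23.8, 36.5 and 42.4 CPM in replicates 1, 3, 4 and 5 (46.2 ± 25.1, n = 4), from 6, 2, 1 and 2 UMIs. Type II HCs held 19.2, 21.3, 21.4 and 22.3 CPM (21.1 ± 1.33, n = 4) and type I HCs 14.0, 10.8, 12.7 and 9.44 CPM (11.7 ± 2.00, n = 4). The order was IHCs, OHCs, type II HCs and type I HCs, and the only overlap between neighbours was that of OHC replicate 1 with the IHCs.

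Kcnh2 was higher in IHCs than in both vestibular types. The log2 difference as fitted by edgeR was -3.11 ± 0.322 for type I minus IHC and -2.27 ± 0.354 for type II minus IHC. Type I minus OHC was -1.89 ± 0.538, and -1.37 without cochlear replicate 1. Type II minus OHC was -1.06 (95% interval -2.11 to -0.01). Kcnh2 passed the filter on low counts through the cochlear types, in which it was high, so these differences are a description, with no test. Within the organs no difference passed in edgeR. IHCs exceeded OHCs by 1.21 ± 0.459 (adjusted p = 0.0699), which passed without cochlear replicate 1 (1.74, adjusted p = 0.0404). Type I minus type II was -0.83 (95% interval -1.52 to -0.15, adjusted p = 0.101).

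**Figure D2:**
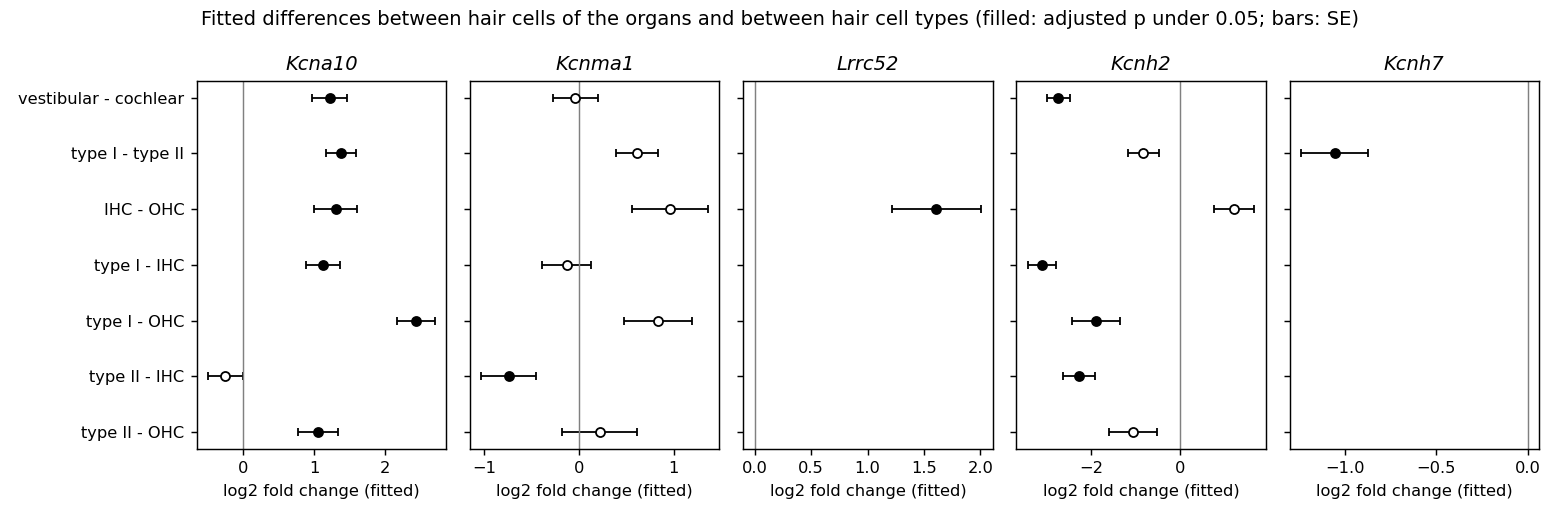
Log2 fold change fitted by edgeR, first group minus second, for each gene and pair of HC groups, with bars for the SE. Filled points passed an adjusted p of 0.05 and empty points did not, the axis range differs between genes, and pairs in which a group held 3 UMIs or fewer are left out. Lrrc52 passed the filter on low counts through IHCs, so its point for IHC minus OHC is a description and not a test. Kcnh2 passed it through cochlear HCs, so its points for vestibular against cochlear groups are likewise a description. Kcna10 is above 0 in every pair that starts with type I HCs or the vestibule, Kcnh2 is below 0 in the organ comparison (-2.74) and Kcnma1 sits near 0 there (-0.04).

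As a share of all ERG UMIs (Kcnh2, Kcnh6 and Kcnh7), Kcnh7 made up 79.7%, 85.3%, 85.4% and 87.3% in the HCs of vestibular replicates 1, 3, 4 and 5. In cochlear HCs it made up 0%, 4.44%, 0% and 0%, of 8, 45, 7 and 10 ERG UMIs. The means were 84.4% ± 3.25 and 1.11% ± 2.22 (SD, n = 4 each), without overlap. Cochlear HCs held 2 UMIs of Kcnh7 in all, so this difference is a description, with no test. Exact Clopper-Pearson 95% intervals, which cover counting error only, ran from 69.2% to 88.0% in vestibular replicate 1 and up to 41.0% in cochlear replicate 4. Between the vestibular types the share was 86.7% ± 3.02 for type I HCs and 80.2% ± 5.17 for type II HCs (n = 4 each, two-sided exact permutation p = 0.0857). This permutation took the types as unpaired, although those of a library come from the same mice. Kcnh6, for ERG2, gave 25 UMIs in type II HCs, between 4 and 12 per library, and 0 in the other 3 types. UMIs of Kcnh2 and Kcnh7 were found together in 18 of 1491 type I and 15 of 278 type II HCs and in no IHC or OHC.

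**Figure D3:**
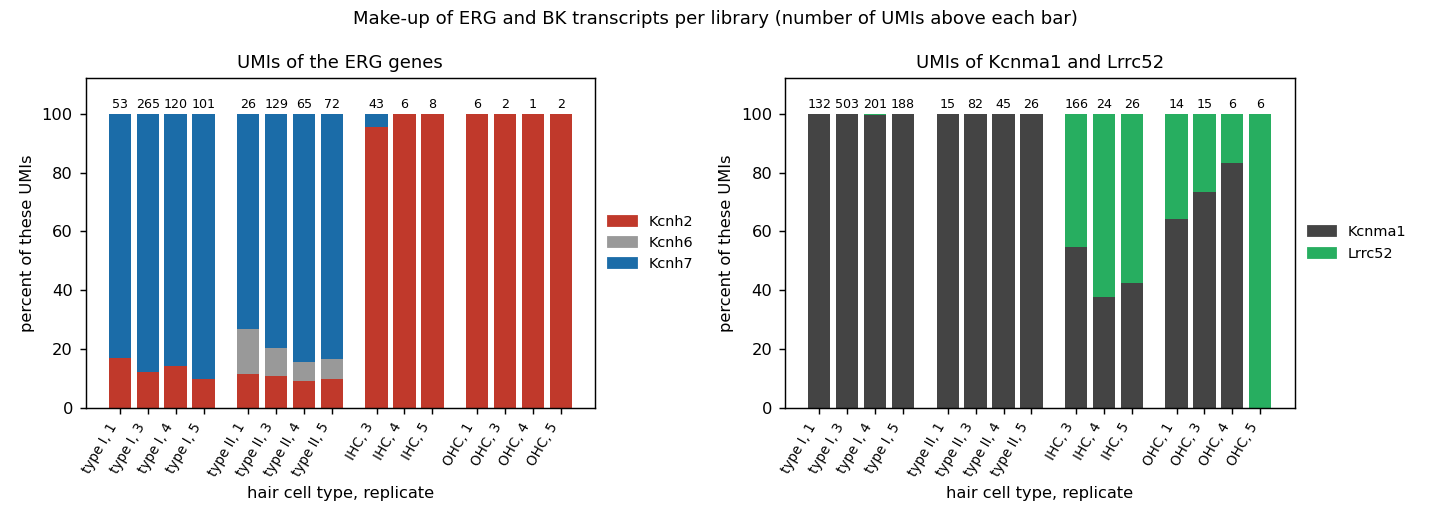
Make-up of ERG transcripts (left, percent of the UMIs of Kcnh2, Kcnh6 and Kcnh7) and of BK transcripts (right, percent of the UMIs of Kcnma1 and Lrrc52) for each HC type and library, with the number of UMIs above each bar. Kcnh7 leads in every vestibular bar and Kcnh2 in every cochlear bar, Kcnh6 appears in type II HCs, and Lrrc52 is visible in the cochlear bars.

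Before thinning, the shares of cells with a UMI of Kcnh2 or Kcnh7 stood in the order of the levels. Kcnh7 UMIs were found in 43.5% of type II and 21.9% of type I HCs, 2.63% of IHCs and 0 of 77 OHCs, which allows up to 3.90% of cells with a UMI and sets no limit on cells that express the gene. After thinning, the values were 10.8%, 7.91%, 0% and 0%, against 0.543% of vestibular macrophage-like cells before thinning and 0% after it. Kcnh2 UMIs were found in 40.8% of IHCs, 11.7% of OHCs, 9.35% of type II and 4.23% of type I HCs, and in 1.35% of cochlear and 0.543% of vestibular macrophage-like cells. After thinning these became 6.58%, 2.60%, 1.08% and 1.41%, where the type I and type II shares stood in the opposite order to the levels and the type II share rests on 3 cells. Kcnma1 UMIs were found in 51.3% of IHCs, 42.3% of type I and 35.3% of type II HCs and 19.5% of OHCs, and in 19.7%, 15.3%, 9.35% and 6.49% after thinning, against 1.12% and 0.815% of cochlear and vestibular macrophage-like cells.

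The study compared vestibular with cochlear HCs. Over all HCs of a library, Kcna10 differed between the organs in edgeR. In that comparison 31.0% of 7669 genes passed, 18.0% higher in vestibular HCs and 12.9% lower. Kcna10 was at 1253, 1049, 857 and 766 CPM in vestibular replicates 1, 3, 4 and 5 and at 290, 540, 371 and 368 CPM in the cochlear replicates, without overlap. It was higher in vestibular HCs by 1.22 ± 0.246 (adjusted p = 0.000433). Kcnh2 was at 12.4 to 15.0 CPM in vestibular and 66.7 to 96.6 CPM in cochlear HCs. The log2 difference as fitted by edgeR was -2.74 ± 0.266, given as a description. Lrrc52 had 2 UMIs in 1769 vestibular HCs, and its summed level in cochlear HCs was 580 times as high (95% interval 157 to 4841, counting error only). Kcnh7 had 2 UMIs in 153 cochlear HCs, and its summed level in vestibular HCs was 36.9 times as high (10.2 to 306). Kcnma1 was at 152 to 183 CPM in vestibular and 86.0 to 224 CPM in cochlear HCs, and its difference of -0.04 (95% interval -0.50 to 0.42, adjusted p = 0.931) was within the spread between libraries. With a limit of 10% mitochondrial UMIs it was called higher in vestibular HCs (1.12, adjusted p = 0.0311). These sums weight the types by their number, as 1491 of the 1769 vestibular HCs are type I. Lrrc52, Kcnh2 and Kcnh7 passed the filter on low counts through the organ in which they were high, so no test is given for them.

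The 5 genes marked HCs to different degrees among the cells of the epithelia, which is given here as a description. Kcna10 was at 6.12 to 14.6 CPM in the other vestibular cells and 0.434 to 3.43 CPM in the other cochlear cells, so that HCs lay above other cells by 5.13 to 6.43 in log2(CPM + 5) in all 8 libraries. For Kcnma1 this difference was 3.14 to 4.04. For Lrrc52 it was 3.41 to 4.91 in the cochlea and at most 0.17 in the vestibule. For Kcnh2 it was 2.69 to 3.50 in the cochlea and 1.46 to 1.78 in the vestibule, and for Kcnh7 3.48 to 4.14 in the vestibule and -0.74 to 0.07 in the cochlea, where HCs were no higher than other cells.

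The cochlear neuron-like cells (334 cells, n = 4 libraries) were the other class with several of these genes. They held Kcnma1 at 107 ± 32.9 CPM, Kcnh2 at 56.0 ± 17.0 CPM and Kcnh7 at 36.2 ± 9.93 CPM. Lrrc52 was at 15.4 ± 11.3 CPM and Kcna10 at 12.4 ± 13.1 CPM, from 22 and 29 UMIs. Summed over libraries these were 7.07 and 9.31 CPM. Kcnh7 was thus found in the cochlea, in a class other than HCs. Melanocyte or intermediate cell-like cells held Kcnma1 at 12.5 CPM in the cochlea and 16.0 CPM in the vestibule, from 13 and 12 UMIs. Kcna10 reached 26.4 ± 13.1 CPM in vestibular supporting cell-like cells, the highest class mean outside HCs. It was at 25.1 ± 25.7 CPM, from 3 UMIs, in vestibular myelinating glia-like cells and at 14.9 ± 12.1 CPM in vestibular neutrophil-like cells. A neutrophil-like cluster led by Cxcl2 held 42.2 CPM when summed, above the supporting cell-like clusters (31.6 and 31.8 CPM). Whether these levels are background was not tested.

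**Figure D4:**
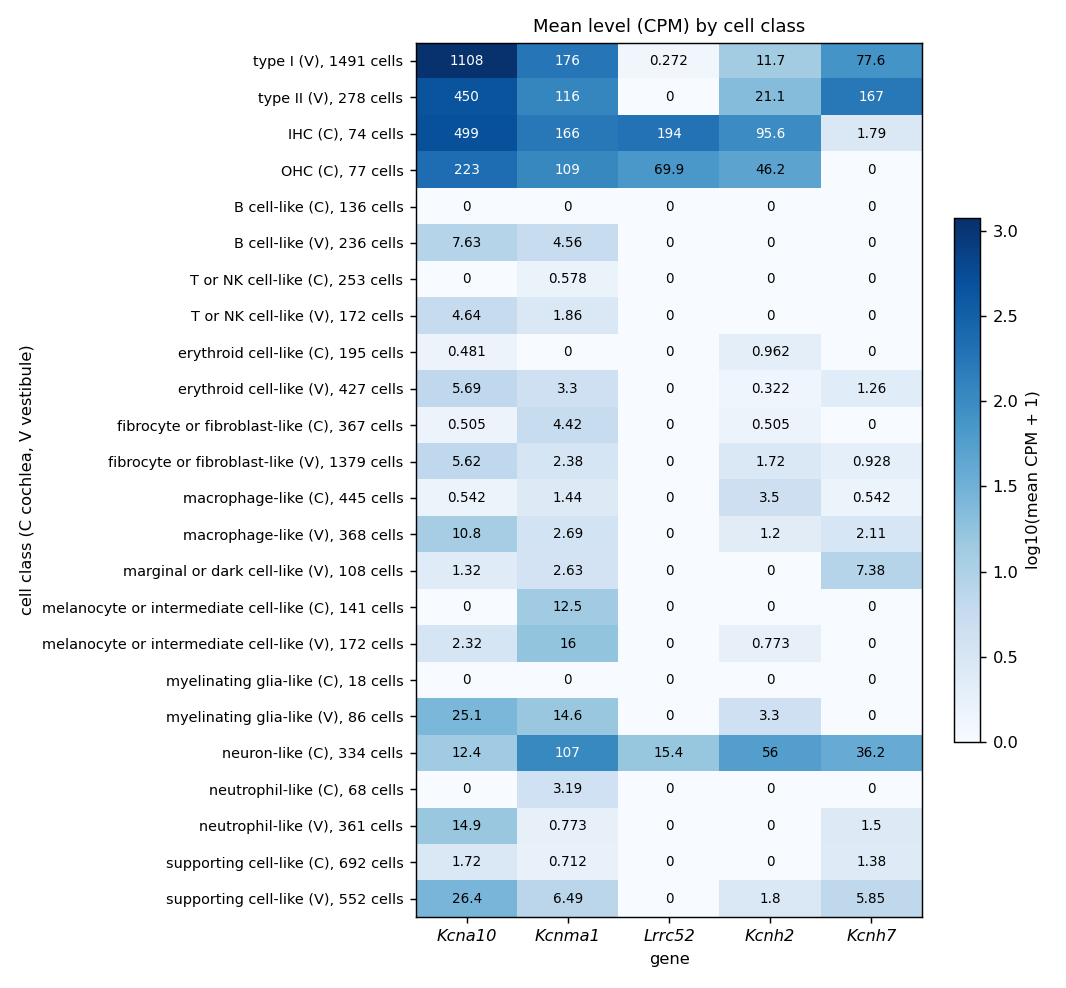
Mean level (CPM, printed in each cell) of the 5 genes in every named class of the cochlea (C) and vestibule (V), with the number of cells, coloured on the scale log10(mean CPM + 1). The 4 HC types stand at the top. Of the other classes the cochlear neuron-like cells hold Kcnma1 (107), Kcnh2 (56) and Kcnh7 (36.2), with Lrrc52 (15.4) and Kcna10 (12.4) from few UMIs.

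The levels varied within the types. IHCs fell into a cluster of 47 cells with a median of 9958 UMIs and a cluster of 29 cells with a median of 1767 UMIs led by AY036118 and Gm42418, genes that carry ribosomal RNA sequence. Their summed levels were 231 and 47.6 CPM for Kcnma1, 185 and 270 CPM for Lrrc52 and 589 and 365 CPM for Kcna10, and 14 of the 18 IHCs of replicate 5 were in the second cluster. Among type I HCs, Kcnh7 was at 39.8, 38.5, 58.4 and 35.3 CPM in replicates 1, 3, 4 and 5 in a cluster of 370 cells led by S100a6, Fndc1 and S100a13. It was at 97.7, 91.6, 70.9 and 98.6 CPM in a cluster of 266 cells led by Ano2, Olfm4 and Ocm, a calcium-buffer gene of striolar type I HCs, and the values of these 2 clusters did not overlap. Kcna10 was at 1072 to 1593 CPM in the first and 846 to 1480 CPM in the second. The largest type I cluster, of 561 cells, held Kcnh7 at 48.1 to 100 CPM and overlapped both. Clusters of 231 and 63 cells held summed Kcnh7 levels of 119 and 144 CPM, above the 89.6 CPM of the cluster led by Ano2. In the cluster of 231 cells the libraries ranged from 0 to 269 CPM, and replicate 3 gave 57 of the 63 cells of the other. As the clusters were drawn from the same cells, no test was made.

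Over the 60 clusters of both organs, the genes with the pattern most like each member were taken from 16473 genes by Pearson correlation of log2(CPM + 5). These points share libraries and differ in depth, so the values are descriptive. For Kcna10 they were Syt14 (r = 0.966), Pjvk (0.965), the deafness gene for pejvakin, and Kncn (0.962), the kinocilin gene. For Kcnma1 they included Ano3 (r = 0.895) and Ksr2 (0.881), and for Lrrc52 they were Gm5737 (0.901), Fcrlb (0.877) and Gm17108 (0.852). For Kcnh2 they were Asic1 (r = 0.901), Unc79 (0.900) and Cap2 (0.876), and for Kcnh7 Agbl4 (0.940), Tmem151b (0.929) and Usp29 (0.927).

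The 5 genes belong to a list of 99 genes for potassium channel subunits and their auxiliary proteins, of which 18 or 19 passed the filter on low counts in a comparison. In vestibular against cochlear HCs 8 of 19 were higher and 7 lower, with a median log2 fold change of 0.43, beside 0.06 over all genes, of which 18.0% were called higher and 12.9% lower. In type I against type II HCs 4 of 18 were higher and 7 lower, with a median of -0.49, beside 0.00 over all genes, of which 7.82% were called higher and 10.1% lower. In IHCs against OHCs 4 of 18 were higher and 2 lower, with a median of 0.48, beside 0.12 over all genes, of which 8.89% were called higher and 5.99% lower. Without vestibular replicate 3 or 5 the 4 higher genes of type I HCs became 2, and without vestibular replicate 3 or 4 the 7 lower ones became 4, while with the library as a block they were 7 and 7. Without cochlear replicate 3 the counts for IHCs against OHCs were 1 and 1. The genes that passed the filter are those with counts in some of these groups, and the others were not compared. Some genes in these counts, such as Dpp10 and Kcnv1, passed the filter only through groups in which they were high.

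The type I profile was led by Kcna10 together with Kcnab1, for a Kv beta subunit that binds Shaker-type channels, at 565 ± 67.7 CPM. Kcnab1 was at 88.7 ± 36.8 CPM in type II HCs (log2 difference 2.82 ± 0.236, adjusted p = 9.21e-13). It was at 264 ± 65.3 CPM in IHCs and 28.5 ± 34.9 CPM, from 8 UMIs, in OHCs (3.06 ± 0.483, adjusted p = 7.54e-06). Kcna10 and Kcnab1 were thus both higher in type I than type II HCs and in IHCs than OHCs. Both were also higher in vestibular than cochlear HCs, by 1.35 ± 0.286 for Kcnab1 (adjusted p = 0.000720). The inward rectifier genes Kcnj13 (33.4 against 1.18 CPM, from 2 UMIs) and Kcnj16 (32.9 against 5.78 CPM, from 5 UMIs) were also higher in type I HCs. They held few UMIs in type II HCs, so no test is given for them. These 4 are the list genes counted above as higher in type I HCs.

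The genes counted above as higher in type II HCs were Kcnv1 and Kcns3, for silent Kv subunits, Kcna4 for Kv1.4, Kcnab2, Kcnh8 of the ELK group, Kcnj2 for Kir2.1, and Kcnh7. Kcnv1 was at 88.9 ± 26.8 CPM, against 1 UMI in all type I HCs, so no test is given for it. Kcna4 was at 58.1 ± 9.88 CPM in type II HCs and 3.81 ± 1.03 CPM in type I HCs. Kcnab2 was at 118 ± 46.9 and 14.2 ± 1.36 CPM, and Kcnj2 at 67.1 ± 28.8 and 17.0 ± 4.35 CPM. Kcnh8 was at 159 ± 55.2 and 41.3 ± 7.55 CPM, and Kcns3 at 39.7 ± 5.65 and 22.8 ± 4.75 CPM (adjusted p of 1.31e-09 and 0.0441, edgeR). No p is given for Kcna4, Kcnab2 and Kcnj2, or for list genes with 5 UMIs or fewer in a type. These passed the filter through types in which they were high.

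Kcnn2, for the SK2 channel that works with the efferent nicotinic receptor, was at 96.3 ± 10.1 CPM in OHCs (n = 4) and 11.1 ± 2.65 CPM in IHCs (n = 3). These levels rest on 22 and 5 UMIs, so no test is given for Kcnn2. Kcnab1 and Kcna10 were among the list genes called higher in IHCs than in OHCs, and Lrrc52 was also higher there, given as a description.

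Between the organs, Kcnab1 and Kcna10 were among the list genes called higher in vestibular HCs. Dpp10, Kcnj2, Kcnh7, Kcnj6 and Kcnab2 were also higher there. They held at most 5 UMIs in cochlear HCs and passed the filter through vestibular HCs, so no test is given for them. Dpp10, for an auxiliary subunit of Kv4 channels, and Kcnj2 had 0 UMIs in the IHC and OHC sums, against 30.1 ± 2.58 CPM of Dpp10 in type I HCs. Kcnj6 was at 43.7 ± 18.6 CPM in type I HCs and had 2 UMIs in IHCs. Lrrc52 and Kcnk1 were lower in vestibular HCs without overlap, but held 2 and 4 UMIs there, so no test is given for them. Kcnh2 and Kcnn2 were also lower in vestibular HCs without overlap. They passed the filter through cochlear HCs, so no test is given for them. The genes called lower in vestibular HCs included Kcns3 and Kcnh8, whose libraries overlapped between the organs. Kcnh8 was at 133 ± 21.6 CPM in IHCs and 76.7 ± 62.8 CPM in OHCs, so that its mean in type II HCs (159 CPM) lay above both cochlear types and that in type I HCs (41.3 CPM) below both. The organ sums are mostly type I HCs. Kcnk1, for the two-pore channel TWIK1, was at 109 ± 62.2 CPM in OHCs and 50.9 ± 34.7 CPM in IHCs, and had 3 UMIs over all type I HCs, and 1 over all type II HCs.

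**Figure D5:**
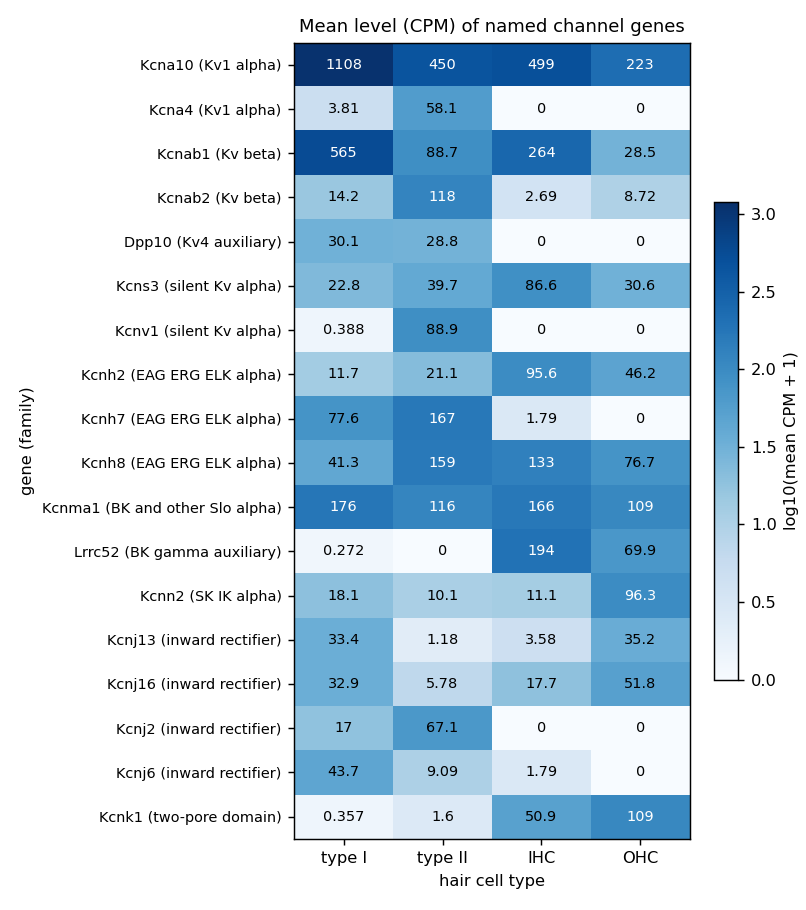
Mean level (CPM, printed in each cell) of the potassium channel genes named in the text, with their family, in the 4 HC types, coloured on the scale log10(mean CPM + 1). Kcna10 and Kcnab1 lead type I HCs (1108 and 565), Kcnv1, Kcna4 and Kcnab2 stand out in type II HCs against type I HCs, Lrrc52 in IHCs (194), and Kcnn2 (96.3) in OHCs.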

How the data were processed

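Sensory epithelia of the cochlea and vestibule of old CBA/J mice were dissociated and captured with the 10x 3′ v3.1 kit. The deposited values are raw UMI counts per gene and barcode, which the authors made with Cell Ranger against mm10. The file headers name version 5.0.1 for replicates 1 and 2 and version 6.1.2 for the others, in both organs alike. Seurat is also named in the submitters' processing notes, but no value from it was used.

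The members and lists were chosen with earlier results of these data known. Barcodes needed 200 genes, 1000 UMIs and under 25% mitochondrial UMIs, the limits of the study, which left 571 to 5070 cells per cochlear and 867 to 5438 per vestibular library. Each organ was clustered in Seurat 5.3.0 (R 4.3.3) with 2000 variable genes, 30 components and resolution 1, and HCs again at resolution 0.5. A cluster was named HC when at least 3 of 6 HC markers had a log2 fold of at least 1 and a UMI in 25% of its cells. Clusters were set aside when at least 5 of the 10 genes leading them were also in the top 100 of 1 other cluster, or when 3 supporting-cell markers were enriched. This rule was set after the clusters had been seen. No doublet caller was run. The type names are rebuilt from markers and may differ from those of the study.

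UMIs were summed per library and type where it had 5 cells or more, and the sums were tested in edgeR 4.0.16 (TMM factors, filterByExpr, quasi-likelihood test, Benjamini-Hochberg adjustment at 0.05), with all 4 types in 1 fit. DESeq2 1.42.0 was an alternative. SE is the log2 fold change over the square root of F. Libraries are pools of mice, and nothing says whether cochlear and vestibular libraries of a number share mice. Type I and type II HCs of a library are from the same mice, and their deviations from the type means correlated at 0.320, 0.230, 0.291 and 0.289, so they were also fitted with the library as a block. IHCs and OHCs of a library are paired in the same way by design, with correlations of 0.054, 0.057 and 0.012. Cochlear and vestibular libraries shared only a number (0.076, 0.078, 0.118 and 0.036).

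Named genes were the 5 members, up to 8 called list genes per direction without overlap between libraries, the 3 most abundant list genes per type, and the 3 most like genes per member among those of at least 10 CPM in a cluster, of which some are not reported here. On counts drawn with known changes of 2 on the log2 scale the test recovered 96.3% of 192 genes between the organs, 100% of 189 between type I and II HCs and 67.7% of 186 between IHCs and OHCs. Ratios against a count of 0 used a floor of 3 counts over the group.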

Additional observations from a re-analysis of the deposited data

Results flagged for a closer look

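Kcnh7 in the cochlear HCs of replicate 3 was at 4.39 CPM, from 2 UMIs, while the cochlear HCs of the other 3 libraries held none. With 3 libraries at 0, any UMI in the other one sets it apart from its group, so the gap says nothing beyond these 2 UMIs. Of 23 groups of 4 libraries looked at in this way, 1 had such a library, and chance alone gives about 1 in 20. Replicate 3 was the deepest cochlear library, with 455964 UMIs in its HCs against 82816 to 127879 in the others, and the level is under the 6.58 CPM that 3 counts would give there.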

How the results depend on the processing

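Calls of the 5 genes were recomputed under 21 to 25 alternative settings per comparison, and 731 of the 782 values stayed on the same side of the threshold with the same direction, 24 became called, 24 lost their call and 3 reversed. The 782 values include comparisons of Lrrc52, Kcnh7 and Kcnh2 for which no test is given. In most of those of Lrrc52 and Kcnh7 a group held 0 to 2 UMIs, so their outcome was all but fixed and the totals overstate stability. The call of Kcna10 between the organs held in all settings run (0.94 to 1.94), as did the Kcna10 difference of type I and type II HCs (1.31 to 1.51). The Kcnh2 difference between the organs, a description, ranged from -3.09 to -2.02. OHCs were the shallowest type, with 231769 UMIs in all, so that a gene at 0 there can have up to 12.9 CPM. TMM factors shifted the median of all genes to 0.12 for IHCs minus OHCs and to 0.22 for type I HCs minus OHCs, against 0.00 and 0.10 with library sizes only.

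With a limit of 10% mitochondrial UMIs, which left 28 IHCs and 32 OHCs, Kcnma1 was higher in vestibular HCs (1.12, adjusted p = 0.0311) and reversed for type II minus IHC (0.54), Kcna10 lost its calls for IHC minus OHC (1.09), type I minus IHC (0.80) and type II minus OHC (0.57), and Kcnma1 was called for type I minus OHC (1.46). At resolution 0.6 (0.3 for HCs), which left 29 IHCs, Kcnma1 reversed for type II minus IHC (1.49) and was called between type I and type II HCs (0.59). The call of Kcna10 for IHC minus OHC (0.53) was lost. Lrrc52 was at 1.78 for IHC minus OHC and Kcnh7 at 2.46 for type I minus IHC, each a description with no test. With the mixed clusters kept, Kcnh7 between type I and type II HCs (-0.27) lost its call, and Lrrc52 was at 0.96 for IHC minus OHC. Kcnma1 between type I and type II HCs (0.98) and Kcnh2 for IHC minus OHC (1.51) were called in this setting. Kcnh2 was at -1.43 for type II minus OHC, a description with no test. With cells named by their own UMIs, Kcnh7 between type I and type II HCs (-0.29) and Kcna10 for type II minus OHC (0.53) lost their calls. Kcnma1 between type I and type II HCs (1.30) and Kcnh2 for IHC minus OHC (1.75) gained calls, and Lrrc52 was at 1.09 for IHC minus OHC. With cells thinned to 1000 UMIs, Kcna10 for IHC minus OHC (0.61) and type II minus OHC (0.64) and Kcnma1 for type II minus IHC (-1.06) were not called.

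Kcnma1 between type I and type II HCs was also called with RLE size factors (0.61), without a filter on low counts (0.69), with at least 10 cells in a sum (0.64), with replicate 2 in place of replicate 1 (0.61), with the mean of both (0.63), at resolution 1.5 (0.61) and, added after seeing the data, without the IHC cluster led by AY036118 (0.66). Its adjusted p ranged from 0.00105 to 0.303. For type II minus IHC it was not called with RLE size factors (-0.71), library sizes only (-0.66), the DESeq2 Wald test (-0.65) or channel genes among the variable genes (-0.67), and for type I minus OHC it was called without a filter (0.99). Kcnh2 for IHC minus OHC was called with replicate 2 in place of replicate 1 (1.34). With the replicate block, Kcnma1 was called between type I and type II HCs (0.60) and for type I minus OHC (0.85, where the libraries share only a number), and the pairing changed no other call of the members. Kcnh2 for IHC minus OHC could not be fitted with the block.

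Leaving out each library in turn, Kcnma1 ranged from 0.46 to 0.86 between type I and type II HCs and from -0.98 to -0.085 for type II minus IHC. For IHC minus OHC the ranges were 1.09 to 1.42 for Kcna10, 1.35 to 2.05 for Lrrc52 and 0.68 to 1.74 for Kcnh2, and for type I minus OHC -2.16 to -1.37 for Kcnh2. The number of genes called ranged from 543 (without vestibular replicate 3) to 1366 between type I and type II HCs, from 606 (without cochlear replicate 3) to 1024 for IHC minus OHC and from 1409 (without vestibular replicate 3) to 2212 for type II minus IHC. Without vestibular replicates 4 and 5 the first was 687 and 646.

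The number of genes called moved by more than 1.5 times in the following. Thinning gave 693 of 2376 between the organs, 276 of 1206 between type I and type II HCs, 219 of 1001 for IHC minus OHC, 463 of 2275 for type I minus IHC, 479 of 1943 for type I minus OHC, 389 of 2131 for type II minus IHC and 466 of 1935 for type II minus OHC. The limit of 10% gave 1338 between the organs, 291 for IHC minus OHC, 920 and 1274 for type I minus IHC and OHC, and 886 for type II minus IHC. Resolution 0.6 gave 419 for IHC minus OHC and 817 and 795 for type I and type II minus IHC. Naming by the cell's own UMIs gave 378 between type I and type II HCs, 532 for IHC minus OHC, and 1293 and 1138 for type I and type II minus OHC. Keeping the mixed clusters gave 2316 between type I and type II HCs and 3535 for type I minus IHC, no filter gave 1832 between type I and type II HCs, and the replicate block gave 1972 there and 507 for IHC minus OHC. The cause of these changes was not tested, except that thinning and the limit of 10% leave fewer UMIs or cells. Of 146 counts of the channel list 26 moved by more than 1.5 times, of 40 levels 8 moved by more than 1 SD, and for 7 of 10 alternative measures of likeness fewer than 2 of the 3 genes were shared.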

Other observations

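The HC clusters that were set aside carried the same genes. In the 69 cochlear cells set aside, Kcna10 was at 371 ± 89.5 CPM, Kcnma1 at 153 ± 34.2 CPM, Kcnh2 at 132 ± 64.5 CPM and Lrrc52 at 90.8 ± 37.8 CPM (SD, n = 4), with 3 UMIs of Kcnh7. In the 509 vestibular cells set aside, Kcna10 was at 461 ± 72.2 CPM, Kcnma1 at 82.4 ± 8.39 CPM, Kcnh7 at 71.6 ± 16.1 CPM and Kcnh2 at 13.4 ± 5.13 CPM, with 1 UMI of Lrrc52. These cells entered none of the comparisons as reported, but entered some of the alternative settings, such as that with the mixed clusters kept.

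Other markers varied between the HC types beside the values reported. Erythroid markers summed to 8433 CPM in the OHCs of replicate 1 and to between 0 and 214 CPM in the OHCs of the other libraries. They summed to 7183 CPM in the type II HCs of replicate 3, to between 83.2 and 281 CPM in the other type II libraries and to between 99.2 and 1509 CPM in type I HCs. Without vestibular replicate 3 the type I minus type II difference was 1.36 for Kcna10 and -1.10 for Kcnh7, both still called (adjusted p of 0.000179 and 0.00196, edgeR). Fibrocyte or fibroblast markers summed to 1697 CPM in the OHCs of replicate 5, in which Kcnma1 had 0 UMIs, and to 219 to 797 CPM in the other OHC libraries. Macrophage markers summed to at most 31.5 CPM in type I HCs, 27.3 CPM in OHCs and 18.8 CPM in IHCs. Neuron markers, some of which HCs express, summed to 149 to 215 CPM in IHCs, where Tubb3 and Rbfox3 were at 0, and to 452 to 752 CPM in OHCs. The part of these cells in the levels was not tested.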
